A study of Mus musculus with 4 samples.

Results

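Transcript levels of 9 genes of neuronal migration were examined in mouse cortical cells that overexpressed the transcriptional repressor Zeb1. The genes are the doublecortin family members Dcx, Dclk1 and Dclk2, the Lis1 gene Pafah1b1 with its partners Nde1 and Ndel1, and the kinase gene Cdk5 with its activator genes Cdk5r1 and Cdk5r2. They were taken by symbol from a table of 48395 genes, which held all 9, each under 1 entry, and all 9 reached the level required for testing. Cortices of ICR mouse embryos were electroporated in utero at E14.5 with either a CAG-IRES-ZsGreen control plasmid or a CAG-Zeb1-IRES-ZsGreen plasmid. After 48 hours, at E16.5, fluorescent cells were sorted from the dissociated cortex, and 2 libraries were made per plasmid. Both groups had thus been electroporated, carried the ZsGreen reporter and were sorted on its fluorescence. The CAG promoter is active in most cell types, so expression of the plasmid was not restricted to a neuronal stage. The values are FPKM (fragments per kilobase of transcript, scaled to the mapped fragments of the library). They are per length and can be set side by side between genes. Pairs of values are given for replicate 1 and then replicate 2.

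As background, newborn projection neurons leave the ventricular surface of the cortex and climb along radial glia, and their microtubules link the nucleus to the centrosome ahead of it. Doublecortin binds and stabilises these microtubules. LIS1, together with NDE1 or NDEL1, regulates the motor dynein, which pulls on the nucleus and the centrosome. CDK5 is a kinase that is active in neurons when bound by the activator p35 or p39, the products of Cdk5r1 and Cdk5r2, and NDEL1 and doublecortin are among its substrates. In humans, loss of DCX or LIS1 function causes lissencephaly, a smooth cortex with misplaced neurons.

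The electroporated gene checked the labels: Zeb1 had 35.2 and 18.6 FPKM with the control plasmid and 5622 and 6227 FPKM with Zeb1. How deeply each library was sequenced cannot be read from FPKM. The value of a single read, estimated from short genes, lay between 0.964 and 1.01 times that of control replicate 1. Whether replicates were separate litters is not given in the labels, so the tests measure only the spread between these samples, which may be technical. In bulk samples, fewer cells of a type and less RNA per cell cannot be told apart. All 9 radial glial, 10 immature neuron and 9 mature projection neuron markers listed were detected well enough to be tested in the labelled tissue. So were all 10 microglial markers. The microglial markers summed to 495 and 125 FPKM with the control plasmid and to 899 and 475 FPKM with Zeb1, and their part in the results below was not tested.

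No difference between Zeb1 and control cells passed the test for any of the 9 genes. In limma with Benjamini-Hochberg adjustment over all 14330 genes tested, 0 of the 9 had an adjusted p under 0.05, where 0.195% of all tested genes did (0.0837% higher and 0.112% lower). By an unadjusted p under 0.05 there were also 0 of 9, against 6.92% of all genes. A p above the threshold does not show that the levels were equal, so each gene is given with its interval. Dclk1, a microtubule-binding kinase, stood highest among the differences, with a ratio of group means of 1.35. It also had the smallest p. Cdk5r2, the gene of the activator p39, was the only other gene whose Zeb1 libraries both lay above both controls. For the other 7 genes the ratio of group means lay between 0.969 and 1.10.

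The genes differed widely in level, in the order shown in the plot of levels by library. Dcx and Cdk5r1 were the most abundant, with means over the 4 libraries of 164 and 160 FPKM, above 96.6% and 96.5% of the protein-coding genes tested. Their ranges overlapped, and Dcx was the higher of the pair in 3 of 4 libraries. Dclk2 (90.5 FPKM), Dclk1 (81.8 FPKM) and Cdk5 (76.7 FPKM) came next, and neighbours in that stretch of the order also overlapped. Pafah1b1 and Ndel1 followed with 51.5 and 44.8 FPKM, again with overlapping ranges. Nde1, at 21.2 FPKM, lay below Ndel1 in every library. Cdk5r2 was lowest, at 7.66 FPKM, above only 32.3% of the protein-coding genes tested. The steps from Cdk5r1 to Dclk2, from Cdk5 to Pafah1b1, from Ndel1 to Nde1 and from Nde1 to Cdk5r2 separated the ranges over all 4 libraries.

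**Figure D1:**
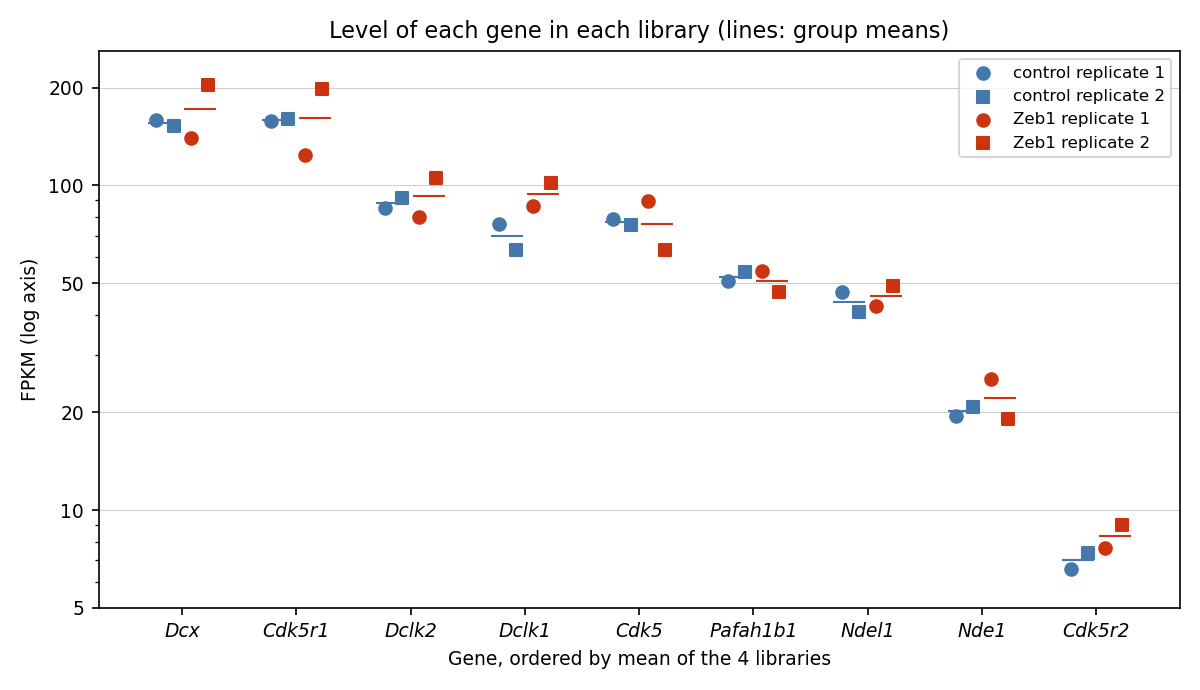
FPKM of the 9 genes (log axis) in the 4 libraries, ordered by their mean, with blue points for control and red points for Zeb1 libraries, circles for replicate 1 and squares for replicate 2, and lines at the group means. Only for Dclk1 and Cdk5r2 do both red points lie above both blue points, and the red points of Dcx and Cdk5r1 stand widest apart.

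Within the doublecortin family, Dcx encodes doublecortin itself, the microtubule-binding protein of migrating neurons. The gene lies on chromosome X (GRCm38, 143855842 to 143933311, minus strand). Its level was 159 and 153 FPKM with the control plasmid and 140 and 204 FPKM with Zeb1. The controls were close together, and the Zeb1 libraries lay on either side of both. The control mean was 156 ± 4.22 FPKM and the Zeb1 mean 172 ± 45.5 FPKM (SD, n = 2 each). On the log2(FPKM + 1) scale the fitted change was 0.12 (standard error 0.24), and the 95% interval ran from -0.54 to 0.77 (limma adjusted p = 0.931). The sign rested on Zeb1 replicate 2, without which the difference was -0.16.

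Dclk1 encodes a relative of doublecortin that joins doublecortin domains to a protein kinase domain. The gene lies on chromosome 3 (GRCm38, 55242364 to 55539068, plus strand). It had 75.9 and 63.4 FPKM with the control plasmid and 86.2 and 102 FPKM with Zeb1. Both Zeb1 libraries lay above both controls, and the gap of the nearest pair was smaller than the difference between the controls. The control mean was 69.7 ± 8.83 FPKM and the Zeb1 mean 94.0 ± 11.1 FPKM (SD, n = 2 each). The log2 fold change was 0.43 with a standard error of 0.18 and a 95% interval of -0.07 to 0.92, and limma gave an unadjusted p of 0.0740 and an adjusted p of 0.749. The difference stayed positive when any 1 library was left out, between 0.30 and 0.56.

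Dclk1 has 2 annotated start sites in RefSeq (GRCm38.p6), 219364 bases apart. The first lies at the start of the gene, and the second, inside the gene, begins shorter transcripts. The deposited values are per gene and do not separate them. The 250 bases before each start are shown because Dclk1 is the gene with the largest difference. Its second window is also the only one, among those at hand for the 9 genes, with a match to the sequences searched. Shorter forms of these sequences were not searched. Capitals mark CACCTG, an E-box core to which ZEB1 is known to bind, and both lines are on the plus strand.
Dclk1 first start, chr3:55242114-55242363: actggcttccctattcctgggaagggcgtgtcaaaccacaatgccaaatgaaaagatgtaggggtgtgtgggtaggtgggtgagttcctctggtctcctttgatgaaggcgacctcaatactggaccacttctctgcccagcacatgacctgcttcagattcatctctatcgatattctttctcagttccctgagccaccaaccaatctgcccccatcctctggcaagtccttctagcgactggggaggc
Dclk1 second start, chr3:55461478-55461727: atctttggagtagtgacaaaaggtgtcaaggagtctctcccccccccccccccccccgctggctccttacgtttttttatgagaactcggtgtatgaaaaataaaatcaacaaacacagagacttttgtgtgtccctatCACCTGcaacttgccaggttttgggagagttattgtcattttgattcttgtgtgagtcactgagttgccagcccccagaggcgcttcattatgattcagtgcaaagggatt

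The search covered CACCTG with its reverse complement CAGGTG, and CAGGTA with its reverse complement TACCTG, in windows from 250 bases before to 50 bases after a RefSeq start. Of the 9 genes, 7 had at least 1 such window, and there were 9 windows in all. A single match was found, at 55461617 to 55461622 on chromosome 3, which begins 111 bases before the second Dclk1 start. Among 32851 windows of the same length over all RefSeq genes, 20.2% held CACCTG, 12% held CAGGTA and 29.5% held either on at least 1 strand. A match describes the letters in the window and is no measurement of ZEB1 binding.

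Dclk2 is the second doublecortin-like kinase gene (chromosome 3, GRCm38, 86786151 to 86920852, minus strand). It had 85.2 and 91.6 FPKM with the control plasmid and 79.7 and 105 FPKM with Zeb1, on either side of both controls. Means were 88.4 ± 4.50 FPKM in control and 92.5 ± 18.2 FPKM in Zeb1 libraries (SD, n = 2 each). The log2 difference was 0.05 with a standard error of 0.19 and a 95% interval of -0.49 to 0.60 (limma adjusted p = 0.968), and it was -0.15 without Zeb1 replicate 2. The family as a whole, taken as the sum of the 3 genes, had 320 and 308 FPKM with the control plasmid and 306 and 411 FPKM with Zeb1. Zeb1 replicate 1 was thus just below both controls, and Zeb1 replicate 2 was well above them. The other doublecortin-domain genes listed, Dclk3, Dcdc2a, Dcdc2b, Dcdc2c, Rp1 and Rp1l1, reached at most 1.01 FPKM in any library, and 0 of the 6 could be tested.

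Among the LIS1 genes, Pafah1b1 encodes LIS1, which holds dynein on the microtubule under load (chromosome 11, GRCm38, 74673949 to 74724670, minus strand). It had 50.7 and 54.0 FPKM with the control plasmid and 54.4 and 46.9 FPKM with Zeb1. The groups overlapped fully. Control averaged 52.3 ± 2.33 FPKM and Zeb1 50.7 ± 5.29 FPKM (SD, n = 2 each). The log2 fold change of -0.05 had a standard error of 0.15, and its 95% interval of -0.46 to 0.37 was the narrowest of the 9 (limma adjusted p = 0.959). It was 0.06 without Zeb1 replicate 2. On this scale the interval corresponds to ratios from 0.726 to 1.29, so a change within those bounds could not be told from none.

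Nde1 encodes a LIS1-binding dynein regulator best known from dividing neural progenitors (chromosome 16, GRCm38, 14163275 to 14192928, plus strand). It had 19.5 and 20.8 FPKM with the control plasmid and 25.3 and 19.1 FPKM with Zeb1, so that the highest and the lowest value both came from the Zeb1 group. Averages were 20.2 ± 0.920 FPKM for control and 22.2 ± 4.38 FPKM for Zeb1 (SD, n = 2 each). The difference in log2 level was 0.12 with a standard error of 0.19 and a 95% interval of -0.41 to 0.64 (limma adjusted p = 0.901), and it was -0.08 without Zeb1 replicate 1. Of the cycling-cell markers, 12 of 12 were tested, and their summed level was 275 and 301 FPKM with the control plasmid and 336 and 264 FPKM with Zeb1. Nde1 and this sum placed the 4 libraries in the same order, with Zeb1 replicate 1 highest and Zeb1 replicate 2 lowest, over 4 libraries only. Pafah1b1 had that order as well, and how many other genes share it was not counted. The part of cycling cells in the Nde1 values was not tested.

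Ndel1, the paralog of Nde1 that acts mainly in neurons after their last division, lies on chromosome 11 (GRCm38, 68821434 to 68871858, minus strand). It had 47.1 and 40.7 FPKM with the control plasmid and 42.6 and 48.9 FPKM with Zeb1, with the groups interleaved. Control averaged 43.9 ± 4.57 FPKM and Zeb1 45.7 ± 4.49 FPKM (SD, n = 2 each). The log2 difference was 0.06 with a standard error of 0.16 and a 95% interval of -0.39 to 0.51 (limma adjusted p = 0.950). It was -0.05 without control replicate 2 and -0.04 without Zeb1 replicate 2. The sum of Nde1 and Ndel1 was 66.7 and 61.5 FPKM with the control plasmid and 67.8 and 68.0 FPKM with Zeb1.

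Cdk5, the kinase gene itself (chromosome 5, GRCm38, 24418241 to 24423530, minus strand), had 78.7 and 75.6 FPKM with the control plasmid and 89.5 and 63.1 FPKM with Zeb1. The Zeb1 libraries again lay on either side of both controls. Averages of 77.1 ± 2.19 FPKM in control and 76.3 ± 18.7 FPKM in Zeb1 were nearly equal (SD, n = 2 each). The log2 fold change was -0.04 with a standard error of 0.22 and a 95% interval of -0.64 to 0.57 (limma adjusted p = 0.982), and without Zeb1 replicate 2 it was 0.21.

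Cdk5r1 encodes p35, the main CDK5 activator of migrating neurons (chromosome 11, GRCm38, 80477023 to 80481184, plus strand). It had 158 and 160 FPKM with the control plasmid and 124 and 198 FPKM with Zeb1. The controls were almost equal, while the Zeb1 libraries were 1.60-fold apart, more than any other of the 9 genes. The averages, 159 ± 1.53 FPKM in control and 161 ± 52.7 FPKM in Zeb1, differed little against this spread (SD, n = 2 each). The fitted log2 fold change was -0.02 with a standard error of 0.28 and a 95% interval of -0.79 to 0.75 (limma adjusted p = 0.996). Without Zeb1 replicate 1 it was 0.32 and without Zeb1 replicate 2 it was -0.36, and its sign also turned under 2 other scalings of the libraries.

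Cdk5r2, the gene of the activator p39 (chromosome 1, GRCm38, 74854934 to 74857732, plus strand), had 6.59 and 7.40 FPKM with the control plasmid and 7.63 and 9.02 FPKM with Zeb1. Both Zeb1 libraries were higher than both controls, the nearer of them by less than the controls differed from each other. Control averaged 6.996 ± 0.573 FPKM and Zeb1 8.32 ± 0.984 FPKM (SD, n = 2 each). The log2 fold change was 0.22 with a standard error of 0.17 and a 95% interval of -0.25 to 0.69 (limma adjusted p = 0.765), and it stayed positive, between 0.11 and 0.33, with any 1 library left out. Cdk5r1 made up 94.2% to 96.0% of the summed level of both activator genes in each library. That sum was 164 and 167 FPKM with the control plasmid and 131 and 207 FPKM with Zeb1.

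Across the 9 genes, 6 log2 fold changes were positive and 3 negative (7 positive under rescaling to the same total and quantile normalization), and over all genes tested 50.1% were positive. Their median was 0.06, against 0.0003 over all genes tested. Without Zeb1 replicate 1 that median was 0.25, and without control replicate 2 it was 0.09. The number of positive values was 5 without control replicate 2 and 5 without Zeb1 replicate 2. The groups did not overlap in 2 of the 9, where they did not in 37.6% of all genes tested. In both, Dclk1 and Cdk5r2, the Zeb1 libraries were above the controls, where 18.2% of all genes tested were. In 0 of the 9 were both below, against 19.5% of all genes. For 6 of the 9 the Zeb1 libraries lay on either side of both controls, where 15.2% of all genes did. In the main limma fit, all 9 intervals ended inside a 2-fold change in either direction on the log2(FPKM + 1) scale. For Dclk1 the standard error was 0.18 in that fit and 0.20 with a replicate block. With libraries rescaled to the same total its log2 fold change was 0.46, with a standard error of 0.20. Its interval may therefore pass a 2-fold change in those fits, and its bound is given for the main fit only. The widest bounds were 0.92 for Dclk1 and -0.79 for Cdk5r1.

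**Figure D2:**
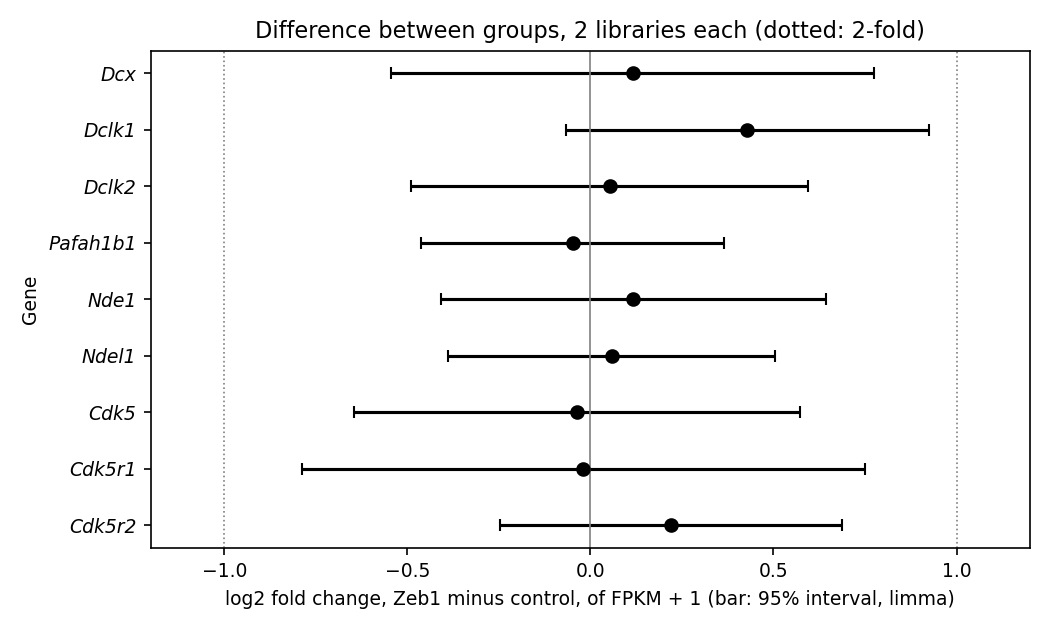
Log2 fold change of FPKM + 1, Zeb1 minus control, for each of the 9 genes, with bars for the 95% interval of the limma fit (2 libraries per group) and dotted lines at a 2-fold change. All 9 intervals include 0 and end inside the dotted lines, and that of Dclk1 begins nearest to 0, at -0.07.

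Ratios between related genes within a library do not depend on how the libraries are scaled. They were compared for 5 pairs with an exact two-sided permutation test over the 4 libraries, which cannot give a p below 0.333. Dclk1 stood at 0.478 and 0.415 times Dcx in the controls and at 0.617 and 0.499 times Dcx in the Zeb1 libraries. The groups did not overlap, the log2 ratio differed by 0.32, and the exact permutation p was 0.333, the smallest possible. Dclk2 stood at 1.12 and 1.44 times Dclk1 in the controls and at 0.924 and 1.03 times Dclk1 in the Zeb1 libraries. There too the groups did not overlap, with a log2 difference of -0.38 and an exact permutation p of 0.333. Both of these ratios contain Dclk1, so they are not separate observations. Both kept their sign with any 1 library left out, but the first was 0.17 without Zeb1 replicate 1 and the second -0.20 without control replicate 2.

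The other 3 ratios overlapped between the groups. Cdk5r1 stood at 23.9 and 21.6 times Cdk5r2 in the controls and at 16.2 and 22.0 times in the Zeb1 libraries. Nde1 stood at 0.414 and 0.512 times Ndel1 in the controls and at 0.594 and 0.390 times in the Zeb1 libraries. The ratio of Cdk5r1 to its kinase Cdk5 was 2.0 and 2.11 in the controls but 1.38 and 3.14 in the Zeb1 libraries, so the replicates of 1 group differed here far more than the group means. The exact permutation p was 0.667 for Cdk5r1 to Cdk5r2 and 1.0 for each of the other two. The difference in log2 ratio of Cdk5r1 to Cdk5r2 was -0.27, and it was -0.05 without Zeb1 replicate 1 and -0.49 without Zeb1 replicate 2. Adjustment over the 5 pairs could not bring any p below the smallest possible value of 0.333.

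**Figure D3:**
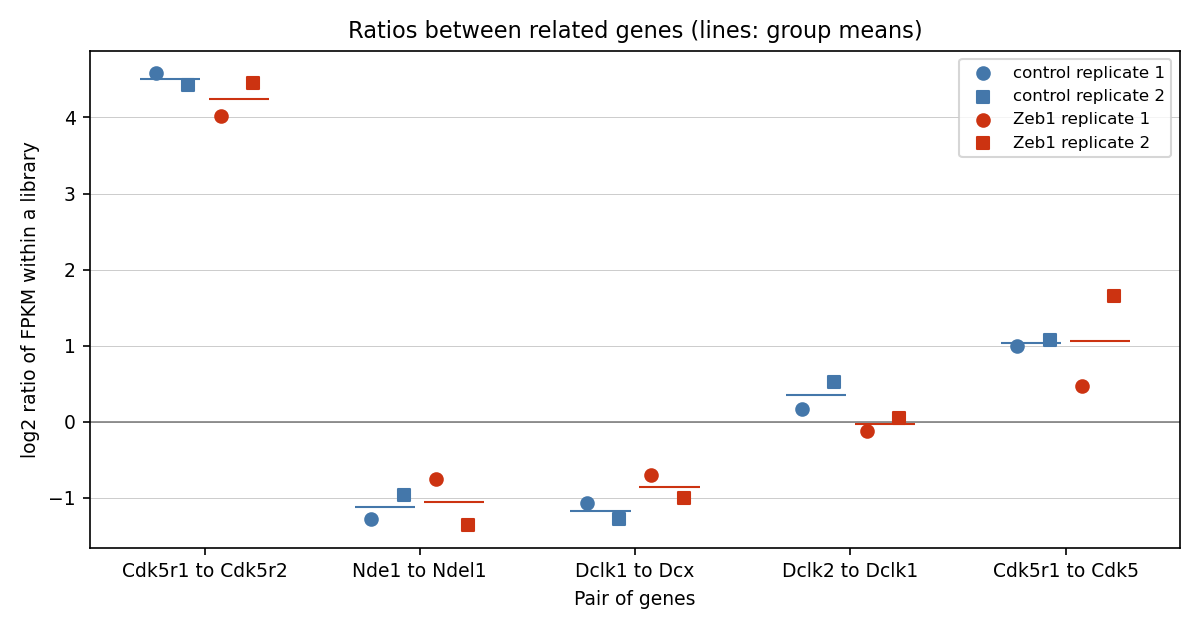
Log2 ratio of FPKM between related genes within each library, with blue points for control and red points for Zeb1 libraries and lines at the group means. The red and blue points separate for Dclk1 to Dcx and for Dclk2 to Dclk1, and the red points of Cdk5r1 to Cdk5 lie on either side of the blue ones.

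The higher over the lower replicate stood at a wider ratio in the Zeb1 group than in the control group for 7 of the 9 genes, Dclk1 and Ndel1 being the exceptions. By the SD of FPKM it was 8 of the 9, all but Ndel1. On the log2(FPKM + 1) scale the Zeb1 replicates were farther apart than the controls for 7 of the 9, and for 50.6% of the protein-coding genes tested. Dcx differed 1.46-fold between the Zeb1 libraries and 1.04-fold between the controls. A spread at least as wide between the Zeb1 libraries was found for 14.6% of the protein-coding genes tested, and for Cdk5r1 that share was 8.75%. For Cdk5, with a 1.42-fold spread, it was 17.7%. The median spread over protein-coding genes was 1.17-fold between the Zeb1 libraries and 1.16-fold between the controls.

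The genes did not move together between the Zeb1 libraries. Dcx, Dclk1, Dclk2, Ndel1, Cdk5r1 and Cdk5r2 were higher in Zeb1 replicate 2, and Pafah1b1, Nde1 and Cdk5 were higher in Zeb1 replicate 1. Of the protein-coding genes tested, 33.5% were higher in Zeb1 replicate 2. Of the radial glial markers, 8 of 9 were higher in Zeb1 replicate 1 than in Zeb1 replicate 2 (all but Hes5), and of the intermediate progenitor markers 6 of 7 were (all but Neurog1). The 9 radial glial markers summed to 876 and 854 FPKM with the control plasmid and to 1326 and 968 FPKM with Zeb1. The intermediate filament gene Vim made up much of that sum, with 392 and 384 FPKM with the control plasmid and 758 and 561 FPKM with Zeb1. Without Vim the other 8 summed to 484 and 471 FPKM with the control plasmid and to 568 and 407 FPKM with Zeb1, so that Zeb1 replicate 2 was then below both controls. The 7 intermediate progenitor markers summed to 507 and 557 FPKM with the control plasmid and to 654 and 533 FPKM with Zeb1.

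The projection neuron marker sums did not place the libraries in the order of Dcx or Cdk5r1. Like both genes, these sums were higher in Zeb1 replicate 2 than in Zeb1 replicate 1. The 10 immature projection neuron markers summed to 1985 and 2750 FPKM with the control plasmid and to 1931 and 2047 FPKM with Zeb1. All 10 of these markers had negative log2 fold changes, 2 of them with an unadjusted limma p under 0.05, and 0 passed over all genes. For the 9 mature projection neuron markers the sums were 629 and 593 FPKM with the control plasmid and 474 and 492 FPKM with Zeb1, and the groups did not overlap. Dclk1 was thus higher in both Zeb1 libraries while this neuronal sum was lower in both. The radial glial sum was higher in both only with Vim included. Interneuron markers summed to 56.4 and 58.4 FPKM with the control plasmid and to 50.5 and 59.0 FPKM with Zeb1. That sum placed the libraries in the same order as Cdk5r1 and Dclk2, and how many other genes share this order was not counted. Erythroid markers summed to 64.1 and 55.3 FPKM with the control plasmid and to 137.9 and 49.7 FPKM with Zeb1. Marker sums of Cajal-Retzius cells, oligodendrocyte precursors, astrocytes, endothelial cells and mural or meningeal cells reached at most 17.9 FPKM in any library. Of these lists, 2 of 5 Cajal-Retzius, 2 of 5 oligodendrocyte precursor, 2 of 5 astrocyte, 3 of 7 endothelial and 1 of 7 mural or meningeal markers averaged 1 FPKM or more. Reln, Olig1, Olig2 and Aldh1l1 were the most abundant of them, while Trp73, Sox10, Aqp4, Gfap, Kdr and Col1a2 were below that level. The part of the cell makeup in the values of the 9 genes was not tested.

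**Figure D4:**
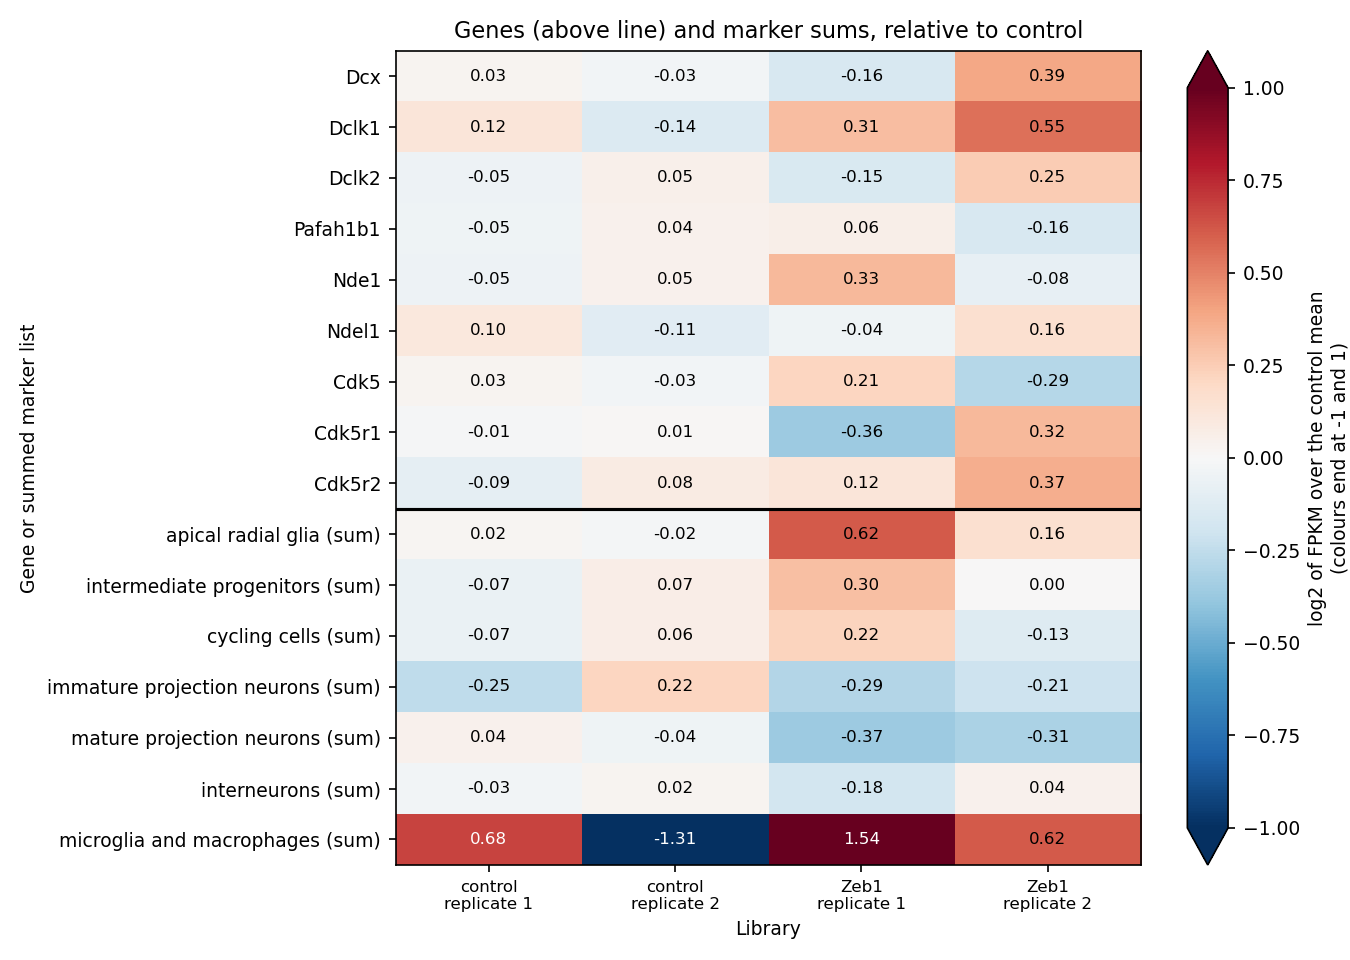
Log2 of FPKM in each library over the mean of both controls, for the 9 genes above the line and for the summed FPKM of 7 cell type marker lists below it (red higher, blue lower). Dcx reads -0.16 and 0.39 and Cdk5r1 -0.36 and 0.32 in the Zeb1 libraries, while the radial glial sum reads 0.62 and 0.16.

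Among the 9 genes, profiles over the 4 libraries were most alike for Dcx and Dclk2. After centring each gene, their root-mean-square difference was 0.0816 on the log2(FPKM + 1) scale, the smallest of 36 pairs. Dcx and Cdk5r1 followed with 0.0862 and Nde1 and Cdk5 with 0.1. The kinase gene Cdk5 and its activator gene Cdk5r1 were the least alike pair, with 0.416. Among 7327 other protein-coding genes averaging 10 FPKM or more, those nearest to Dcx were Cds2 (0.0203), Brd3 (0.0271) and Traf3 (0.0306). Nearest to Dclk1 were Zfp704 (0.0187), Arnt (0.0274) and Polr1a (0.0292). With only 4 libraries, 113 genes lay within 0.1 of Dcx and 112 within 0.1 of Dclk1, so these names describe a profile that many genes share.

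The wider pathway was described with 5 lists of 87 genes in all, of which 77 were tested. In limma with adjustment over all genes, 0 of the 77 passed, against 0.195% of all genes tested, and 2 were higher and 3 were lower by an unadjusted p under 0.05. Such genes made up 3.23% and 3.68% of all genes tested. Both Zeb1 libraries lay below both controls for 23 of the 77 and above both for 5 of the 77, where 19.5% and 18.2% of all genes did. These lists describe the surroundings of the 9 genes, and their shares were not tested.

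Of the dynein, dynactin and LIS1 partner genes, 27 of 28 were tested, with a median log2 fold change of -0.09 and 6 of them positive (9 with libraries rescaled to the same total and 10 with quantile normalization). These values depended on single libraries: 13 were positive without control replicate 2 and 11 without Zeb1 replicate 2. The median was -0.22 without control replicate 1, -0.18 without Zeb1 replicate 1 and -0.03 without Zeb1 replicate 2. Bicd1, an adaptor that links dynein to its cargo, had 11.3 and 10.9 FPKM with the control plasmid and 22.2 and 18.6 FPKM with Zeb1. The Zeb1 libraries lay well above both controls, with a log2 fold change of 0.82, a standard error of 0.15 and a limma adjusted p of 0.469. Pafah1b3, a catalytic subunit of the enzyme of which LIS1 is the regulatory subunit, had 176 and 219 FPKM with the control plasmid and 139 and 125 FPKM with Zeb1, a log2 fold change of -0.57 (limma adjusted p = 0.691). The dynactin subunit gene Dctn6 had 77.8 and 85.3 FPKM against 59.8 and 61.3 FPKM, a log2 fold change of -0.42 with the same adjusted p. Bicd1, Pafah1b3 and Dctn6 were picked by their small limma p. Over the list, both Zeb1 libraries lay below both controls for 8 of 27 and above both for 1 of 27, where 19.5% and 18.2% of all genes tested did. The groups overlapped for Pafah1b1 and for its partners Nde1 and Ndel1.

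Of the Cdk5 regulators and substrates, 21 of 23 were tested, with a median log2 fold change of -0.21, 7 of them positive (-0.13 without control replicate 1 and -0.12 without Zeb1 replicate 2). Ppp1r1a, an inhibitor of protein phosphatase 1, had 17.5 and 17.1 FPKM with the control plasmid and 12.1 and 9.02 FPKM with Zeb1, a log2 fold change of -0.67 (limma adjusted p = 0.621). The kinase gene Pak1 had 60.6 and 68.3 FPKM against 51.0 and 43.0 FPKM, a log2 fold change of -0.45 (limma adjusted p = 0.721). Mapt, which encodes the axonal microtubule-binding protein tau and is also on the mature neuron list, had a log2 fold change of -0.52. For Cdk5rap3 it was -0.28. These 4 genes were picked by their small limma p, and all had both Zeb1 libraries below both controls. Over the list, 8 of 21 lay below both controls and 3 of 21 above both, where 19.5% and 18.2% of all genes tested did. In limma over all genes, 0 of the 21 passed.

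All 20 microtubule genes were tested, with a median log2 fold change of -0.04, 8 of them positive (-0.10 without Zeb1 replicate 1). The stathmin gene Stmn4 had 156 and 161 FPKM with the control plasmid and 270 and 207 FPKM with Zeb1, a log2 fold change of 0.58 (limma adjusted p = 0.703). Its relative Stmn3 had 180 and 193 FPKM with the control plasmid and 155 and 124 FPKM with Zeb1, a log2 fold change of -0.42. Stathmins bind tubulin and promote microtubule disassembly. These relatives stood on opposite sides of 0, and the other stathmin genes listed had negative log2 fold changes, as Stmn3 did. Mapre3, which encodes a protein of growing microtubule ends, and the tubulin-folding cofactor gene Tbcb had log2 fold changes of -0.40 and -0.37.

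The nuclear linkage genes couple the nucleus to the cytoskeleton. Of these, 9 of 10 were tested, with a median of -0.07 (-0.04 without control replicate 2 and also without Zeb1 replicate 1) and 3 positive, and 0 reached an unadjusted p under 0.05 in limma. Sun2 and Sun1, which encode proteins of the inner nuclear membrane, had log2 fold changes of 0.43 and -0.18. The lamin gene Lmna had 19.2 and 7.15 FPKM with the control plasmid and 18.9 and 17.7 FPKM with Zeb1, so that its log2 fold change of 0.59 rested on control replicate 2. Emd, the emerin gene, had a log2 fold change of -0.20.

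**Figure D5:**
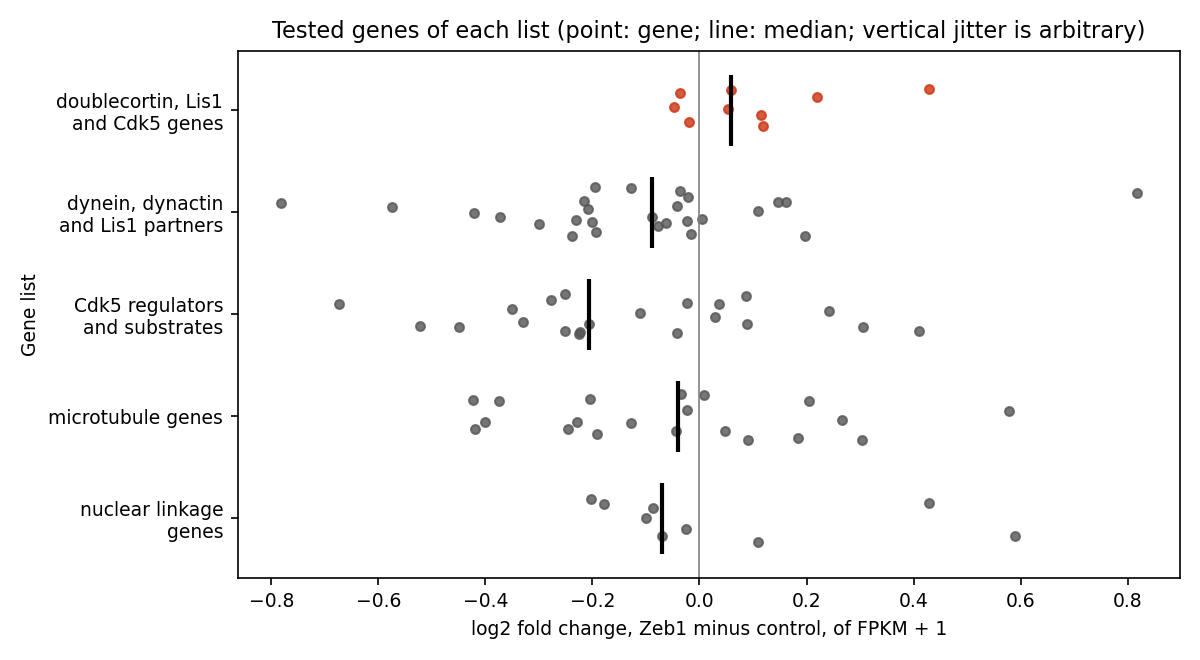
Log2 fold change of FPKM + 1, Zeb1 minus control, for the tested genes of each list, with a point per gene and a line at the median (vertical scatter is arbitrary). The medians run from -0.21 for the Cdk5 regulators and substrates to 0.06 for the 9 doublecortin, Lis1 and Cdk5 genes, and the Bicd1 point stands at 0.82.

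The values of the 9 genes could be touched by reads shared with other transcripts, since the counting method is not given in the sources used here. In GENCODE M21, 0 of the 50-base stretches of any of the 9 genes occurred in another of the 9, so reads of that length match no more than 1 member exactly. Shared with other genes were 0.952% of the 50-base stretches of Pafah1b1, in part with its pseudogenes Pafah1b1-ps1 and Pafah1b1-ps2, 0.839% of those of Nde1, 0.271% of those of Dclk1 and 0.204% of those of Dcx. For the other 5 genes there were 0. In the deposited loci, antisense gene Gm42609 overlapped Dclk1 and had at most 0.524 FPKM, and the counting is not stated to use strand. A small nuclear RNA model inside the Dclk1 locus, Gm25132, was listed at 0 in both controls and in Zeb1 replicate 2 and had 19.2 FPKM in Zeb1 replicate 1, the Zeb1 library with less Dclk1. The other gene models within Dclk1 had at most 3.19 FPKM (Gm19817, in control replicate 2), with Gm42607 and Gm42608 below 1 FPKM in every library and Gm21954 at 0 in all 4. Gm37025 within Dclk2 had at most 0.315 FPKM, and Gm16582, which overlaps Cdk5r2, was listed at 0 in all 4 libraries.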

How the data were processed

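RNA was sequenced from 4 libraries of sorted cortical cells, 2 control and 2 Zeb1, on a BGISEQ-500 instrument per the labels. The authors deposited FPKM for each gene rather than read counts, so no count model was fitted and no counting interval is given. GRCm38, Cufflinks, STAR and DESeq2 are named in the submitters' processing notes, without versions or roles. The table held 48395 genes and 1 emptied line. Loci in the table start 1 base below GENCODE for 43309 genes, and 1 was added. Samples were grouped by their titles. Groups were compared with limma 3.58.1 in R 4.3.3 on log2(FPKM + 1), with an intensity trend, for the 14330 genes averaging 1 FPKM or more, two-sided, with Benjamini-Hochberg adjustment over all of them at a threshold of 0.05. Standard errors, intervals and adjusted p without another tool named come from this fit. The fit was tested on simulated data with independent libraries and variances drawn from the same model. Effects shared by same-numbered libraries were not simulated.

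The 9 genes and all lists were chosen with earlier results of these data known. Besides the 9, the text names up to 4 tested genes per pathway list by limma p, the 3 genes nearest in profile to Dcx and to the gene with the smallest p, overlapping genes, and Zeb1. A gene that this rule also picks is not reported here. Cell type markers are described by their summed FPKM. Shared sequence was searched as 50-base stretches of GENCODE M21 transcripts on both strands, and promoter windows came from RefSeq (GRCm38.p6). Also tried were 3 scalings, pseudocounts of 0.1 or 0.5, testing without a filter or above 5 FPKM, limma without trend or with robust moderation, a replicate block, protein-coding genes alone, and each library left out. Plots were made in matplotlib 3.10.9 under Python 3.11.15.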

Additional observations from a re-analysis of the deposited data

How the results depend on the processing

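In all 15 alternatives to the limma fit, 0 of the 9 genes and 0 of the pathway genes tested passed, and the lowest adjusted p of any of the 9 was 0.558, for Dclk1 over protein-coding genes alone. The scalings moved the median of all genes by at most 0.0262 in either direction. Cdk5r1 turned from -0.02 to 0.0101 with libraries rescaled to the same total FPKM and to 0.0094 with quantile normalization. With 1 library left out, the log2 fold change ran from -0.16 to 0.39 for Dcx, -0.15 to 0.25 for Dclk2, -0.15 to 0.0563 for Pafah1b1, -0.0762 to 0.31 for Nde1, -0.0454 to 0.16 for Ndel1, -0.28 to 0.21 for Cdk5 and -0.36 to 0.32 for Cdk5r1, so that these 7 changed sign. Dclk1 (0.30 to 0.56) and Cdk5r2 (0.11 to 0.33) did not. A group left with 1 library takes its spread from the remaining group. The difference in log2 ratio between the groups ran from 0.17 to 0.47 for Dclk1 to Dcx, -0.56 to -0.20 for Dclk2 to Dclk1, -0.49 to -0.05 for Cdk5r1 to Cdk5r2, -0.24 to 0.37 for Nde1 to Ndel1 and -0.57 to 0.61 for Cdk5r1 to Cdk5.

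Over all genes, 12 were called higher and 16 lower. The counts were 143 and 138 without a filter, 10 and 10 at a mean of at least 5 FPKM, 20 and 16 with robust moderation, and 3 and 0 over protein-coding genes alone. Leaving out any 1 library gave 0 and 0 in limma, with 656 to 1309 genes at an unadjusted p under 0.05. A replicate block gave 5 higher and 6 lower over all genes and 0 of the 9, with a lowest adjusted p of 0.651 for Dclk1. The labels give the replicates a number and do not say that it pairs them. Deviations of same-numbered libraries correlated at 0.368 across 11916 protein-coding genes, which are not independent replicates. Without counts, the depth behind each value is unknown. With 2 libraries per group the intervals are no detection limits: Bicd1, with a log2 fold change of 0.82, did not pass either (limma adjusted p = 0.469).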
